A study of Mus musculus with 10 samples.

Results

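The genes described here are 43 genes of G2 and mitosis, the last stages of the cell cycle, chosen by name from a list of cyclins, mitotic kinases and parts of the division machinery. All 43 had a row among the 55492 gene symbols of the count table. RNA of mouse splenic B cells was sequenced from mice whose B lineage had lost Pcbp1 (KO: Pcbp1 fl/fl with Mb1-Cre, a Cre driver of the B lineage) and from WT mice. Pcbp1 encodes a protein that binds cytosine-rich RNA. The 4 groups were untreated naive B cells on day 0 (2 WT and 2 KO libraries) and iGCB cells on day 4 (3 WT and 3 KO libraries). iGCB cells are B cells differentiated toward a germinal center state in culture with the 40-LB system, in which fibroblast feeders present CD40 ligand and the survival factor BAFF. Age and strain of the mice, and whether WT mice carried Cre, are not stated in the sources used here. Nor is it stated that libraries of a group are from different animals. In each naive group the 2 libraries differ in sex (below), so they are not from the same animal. The iGCB libraries were all male, and for them this stays unknown. The p-values therefore reflect the spread among libraries only. That spread may be technical in iGCB cells, and in naive cells it includes a difference of sex or number.

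As background, a cell enters mitosis when cyclin-bound CDK1 becomes active. The kinases PLK1 and the Aurora kinases then act with motor proteins to build the spindle, and kinetochores attach chromosomes to it. The spindle checkpoint holds back the anaphase-promoting complex (APC/C) until all chromosomes are attached, after which separase frees the sister chromatids and the cytokinesis machinery divides the cell. Most genes of this machinery are transcribed periodically, with their RNA low in resting cells and highest in G2 and M. Resting naive B cells seldom divide, while germinal center B cells are among the fastest dividing cells of the body.

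The libraries held 33400672 to 63576147 counts, and levels are given in CPM, the share of a library's count total after TMM scaling, which aligns libraries on the bulk of their genes. Pcbp1 stood at 152 and 83.9 CPM in naive WT and at 4.33 and 0.448 in naive KO. In iGCB cells Pcbp1 stood at 148, 327 and 326 CPM in WT and at 3.71, 1.96 and 2.59 in KO, so it was low in each library labelled KO. The B cell markers Cd79a, Cd79b, Ms4a1, Pax5, Ptprc, Cd22, Blk, Ighm and Fcrla had counts in every group. Xist and the Y-linked gene Ddx3y showed female cells in naive WT 1 and naive KO 1 and male cells in the other 8 libraries. Fibroblast markers summed to 328 to 454 CPM in iGCB libraries and to 3.29 to 23.1 CPM in naive libraries. Thy1 alone, which T cells also express, made up 355 ± 64.5 CPM of this in iGCB WT and 295 ± 33.4 in iGCB KO, while the collagen gene Col1a1 stood at 20.9 ± 8.24 and 16.9 ± 3.57 CPM (SD, n = 3), and the part of feeder RNA in the results below was not tested. Plasma cell markers summed to 1939.9 to 2070.4 CPM in iGCB WT and 975 to 1073 CPM in iGCB KO, where Tnfrsf17 was at 0.

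Of the 43 genes, 41 passed the filter on low counts and were tested, within 21010 genes tested in all. Nek2, which encodes a centrosome kinase, was listed at 0 in all 10 libraries. Kif11, which encodes the motor that pushes spindle poles apart, had 3 counts in iGCB WT 2 and 0 in the other libraries. Kif11 is needed in every dividing cell, so both genes are given only as listed in this table, and no fold is computed for either. Among the annotated neighbours of Kif11, chosen after their values were seen, Ide had 571 counts over all libraries, Hhex 1 and Exoc6 21551. Beside Nek2, Lpgat1 had 51598 counts, and Slc30a1 and Rd3 had 0.

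**Figure D1:**
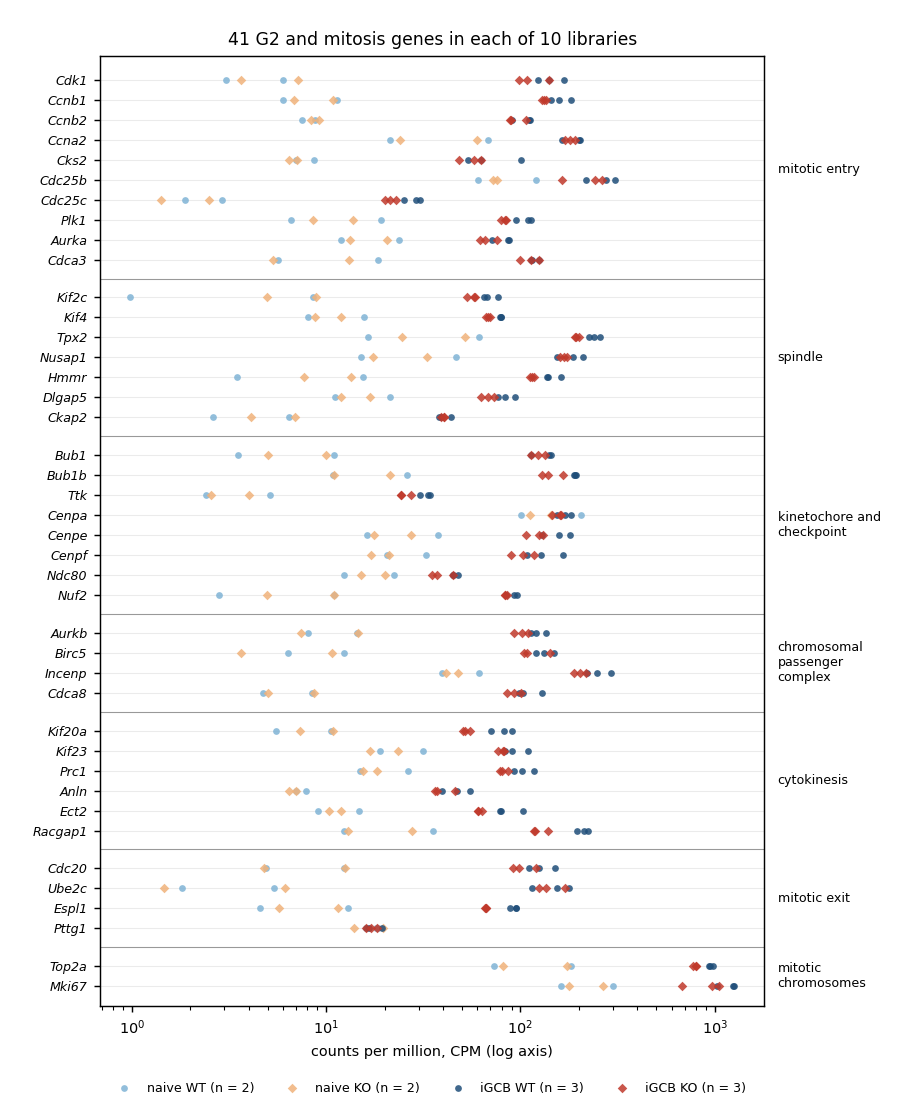
Level of each of the 41 tested genes in each of the 10 libraries, in CPM on a log axis, grouped by role (points are libraries, circles WT and diamonds KO). For 39 genes the iGCB WT points lie above the naive WT points, and Cenpa and Pttg1 are the 2 exceptions.

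Levels of different genes were compared only per length, as CPM per kilobase of annotated exon. On that scale in iGCB WT, Mki67 (117 ± 13), Top2a (106 ± 2.48) and Cks2 (105 ± 36.1) were highest, not apart beyond their spread (SD, n = 3), and Anln (5.21 ± 0.869) was lowest of the 41. Mki67 encodes the proliferation marker Ki-67, which coats mitotic chromosomes, Top2a the topoisomerase that untangles them, and Cks2 a small adaptor of CDK1. In naive WT the highest were Cenpa at 26.1 ± 12.6, Cdc25b at 24.2 ± 11.3 and Mki67 at 22.9 ± 9.62 CPM per kilobase (SD, n = 2), again within their spread, and Cdc25c was lowest at 0.485 ± 0.149. Cenpa encodes the histone H3 variant that marks centromeres, and its level per length in iGCB WT was 28.7. The motor gene Kif4 and the kinetochore gene Nuf2, both at 14.4 CPM per kilobase in iGCB WT, could not be ordered.

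The question of the stage comparison was how the mitotic genes differ between resting and activated B cells. From naive to iGCB cells, 39 of the 41 genes rose in WT and 39 of 41 rose in KO (edgeR's quasi-likelihood test, adjusted p under 0.05 over all genes tested). Over all genes tested, 24.7% were called higher in WT and 24.8% in KO. The largest adjusted p among the genes that rose was 0.00334 in WT (Ccna2) and 0.00331 in KO (Ndc80), and changes in the next paragraphs are log2 fold changes of these fits. The median log2 fold change of the 41 genes was 3.10 in WT and 2.73 in KO, against -0.25 and -0.26 over all genes. In WT, the values of 39 genes did not overlap between naive and iGCB libraries and were higher in iGCB, against 32.2% of all genes, and in KO this held for 40 genes, against 34.2%. Naive and iGCB cells differ in stage, day and culture, which cannot be told apart, and the naive groups held both sexes while all iGCB libraries were male. In bulk RNA, more cells in mitosis and more RNA of these genes in each cell cannot be told apart either. With another scaling, by relative log expression, the median of all genes was -0.34 in WT and -0.36 in KO, and the medians of the 41 genes were 3.02 and 2.63.

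**Figure D2:**
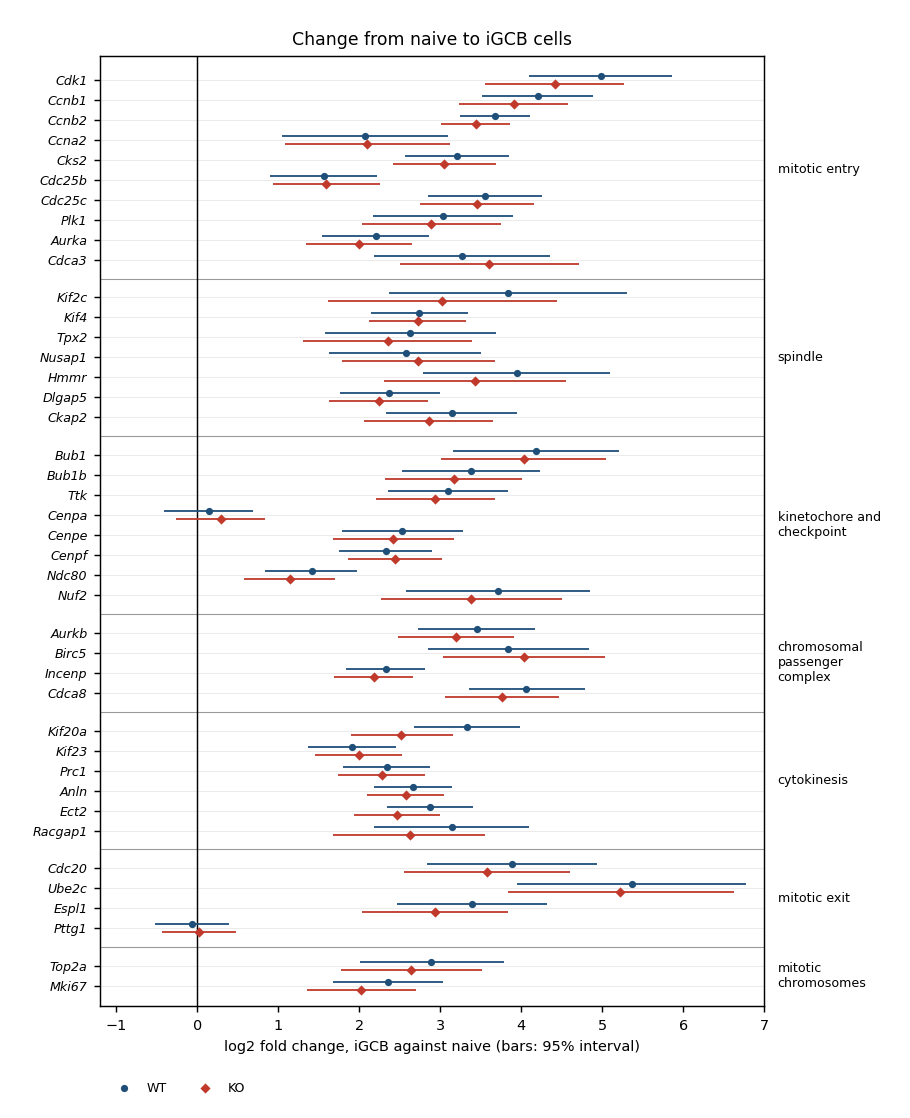
Log2 fold change from naive to iGCB cells for each of the 41 genes in WT (circles) and KO (diamonds), with 95% intervals. Ube2c lies farthest right in both genotypes, and the intervals of Cenpa and Pttg1 include 0.

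Genes of mitotic entry all rose, 10 of the 10 tested in each genotype. The kinase gene Cdk1 (chr10:69335146-69352938 in mm10) stood at 6.01 and 3.05 CPM for naive WT, 7.17 and 3.63 for naive KO, 123, 140.1 and 168 for iGCB WT and 108, 139.7 and 98.5 for iGCB KO. Every iGCB library lay far above every naive one, and the log2 fold change was 4.98 (SE 0.40) in WT and 4.41 (SE 0.39) in KO. For the cyclin gene Ccnb1 the libraries gave 11.4 and 6 CPM for naive WT, 10.8 and 6.81 for naive KO, 144, 158 and 181 for iGCB WT and 135, 133 and 129 for iGCB KO, a change of 4.21 (SE 0.31) in WT and 3.91 (SE 0.31) in KO. Ccnb2, the gene of a second B-type cyclin and the entry gene with the smallest p, stood at 7.56 and 8.72 CPM for naive WT, 8.36 and 9.23 for naive KO, 90.1, 112 and 110.3 for iGCB WT and 89.9, 107 and 88.9 for iGCB KO. Its naive libraries lay close together, and it changed by 3.68 (SE 0.20) in WT and 3.44 (SE 0.19) in KO. Cyclin A, which acts from S phase on, is encoded by Ccna2, which already had 67.9 and 21.4 CPM in naive WT and 59.8 and 23.9 CPM in naive KO and rose by 2.07 (SE 0.46) in WT and 2.10 (SE 0.46) in KO.

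Both phosphatase genes on the list, whose products activate CDK1, rose from different starting levels. Cdc25b stood at 120 and 60.2 CPM for naive WT, 72.3 and 75.5 for naive KO, 306, 275 and 217 for iGCB WT and 264, 241 and 164 for iGCB KO, and its change of 1.56 (SE 0.30) in WT and 1.59 (SE 0.30) in KO was the smallest among the entry genes. Cdc25c stood at 2.9 and 1.87 CPM for naive WT, 2.51 and 1.41 for naive KO, 25.1, 28.9 and 30.3 for iGCB WT and 23, 20.2 and 21.3 for iGCB KO and rose by 3.55 (SE 0.32) in WT and 3.45 (SE 0.32) in KO. The adaptor gene Cks2 gave 8.7 and 7.01 CPM for naive WT, 7.09 and 6.45 for naive KO, 53.7, 63 and 101 for iGCB WT and 57.6, 62.9 and 48.4 for iGCB KO, with iGCB WT 3 apart from the other 5 iGCB libraries, and rose by 3.21 (SE 0.29) in WT and 3.05 (SE 0.29) in KO. The kinase genes Plk1 and Aurka rose by 3.03 (SE 0.39) in WT and 2.89 (SE 0.39) in KO, and by 2.20 (SE 0.30) in WT and 2.00 (SE 0.30) in KO, respectively. Cdca3, whose product helps remove the mitotic inhibitor WEE1, stood at 18.6 and 5.65 CPM for naive WT, 13.1 and 5.31 for naive KO, 113, 125 and 115 for iGCB WT and 114, 124 and 99.4 for iGCB KO, a change of 3.27 (SE 0.49) in WT and 3.60 (SE 0.50) in KO. In naive cells both number 1 libraries lay above both number 2 libraries.

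All 7 tested spindle genes rose in both genotypes. Hmmr, which encodes a spindle assembly factor, stood at 15.4 and 3.48 CPM for naive WT, 13.5 and 7.69 for naive KO, 138, 161 and 137 for iGCB WT and 117, 112 and 115 for iGCB KO and rose most, by 3.94 (SE 0.53) in WT and 3.43 (SE 0.51) in KO. Kif2c, the gene of a motor that takes microtubules apart, had 0.983 CPM in naive WT 2 against 4.97 to 8.89 CPM in the other naive libraries, and 53.4 to 76.6 CPM in the iGCB libraries. Its change was 3.84 (SE 0.67) in WT and 3.02 (SE 0.64) in KO, with the largest SE of the group. The chromosome motor gene Kif4 gave 15.6 and 8.04 CPM for naive WT, 11.9 and 8.74 for naive KO, 78.2, 79.9 and 79.5 for iGCB WT and 66.4, 68 and 69.7 for iGCB KO and rose by 2.74 (SE 0.27) in WT and 2.72 (SE 0.27) in KO. Dlgap5, whose product stabilises spindle fibres, stood at 21.4 and 11.1 CPM for naive WT, 16.8 and 11.9 for naive KO, 76.6, 93.3 and 83.3 for iGCB WT and 67.8, 72.8 and 62.8 for iGCB KO, and its change of 2.37 (SE 0.28) in WT and 2.24 (SE 0.28) in KO was the smallest of the spindle genes in both genotypes. Tpx2, the gene of an activator of Aurora A, rose by 2.63 (SE 0.48) in WT and 2.35 (SE 0.47) in KO. The values of Nusap1, which encodes a microtubule bundler, were 46.5 and 15.2 CPM for naive WT, 32.9 and 17.4 for naive KO, 209, 186 and 154 for iGCB WT and 168, 173 and 159 for iGCB KO, and it rose by 2.57 (SE 0.43) in WT and 2.73 (SE 0.43) in KO. Ckap2, a gene of a microtubule-associated protein, gave 6.45 and 2.62 CPM for naive WT, 6.89 and 4.12 for naive KO, 38, 43.9 and 39.2 for iGCB WT and 40.4, 40.6 and 39 for iGCB KO, a rise of 3.14 (SE 0.37) in WT and 2.86 (SE 0.36) in KO.

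Among the 8 genes of kinetochore and checkpoint, 7 rose in each genotype. The checkpoint kinase gene Bub1 stood at 11 and 3.53 CPM for naive WT, 10 and 5 for naive KO, 143, 141 and 114 for iGCB WT and 134, 123 and 114 for iGCB KO and rose most, by 4.18 (SE 0.47) in WT and 4.03 (SE 0.46) in KO. Bub1b, which encodes the checkpoint protein BUBR1, and Ttk, which encodes the checkpoint kinase MPS1, rose by 3.38 (SE 0.39) in WT and 3.17 (SE 0.38) in KO, and by 3.10 (SE 0.34) in WT and 2.94 (SE 0.34) in KO, respectively. Nuf2, a part of the complex that binds microtubules at the kinetochore, stood at 11 and 2.8 CPM for naive WT, 11 and 4.95 for naive KO, 95.8, 84.5 and 92.8 for iGCB WT and 83.4, 84.9 and 83 for iGCB KO and rose by 3.71 (SE 0.52) in WT and 3.38 (SE 0.51) in KO. Its partner Ndc80 gave 22.3 and 12.3 CPM for naive WT, 20.2 and 15.2 for naive KO, 47.9, 44.8 and 44.9 for iGCB WT and 37.4, 45 and 35 for iGCB KO, and its rise of 1.41 (SE 0.26) in WT and 1.14 (SE 0.26) in KO was the smallest of all genes called. The kinetochore motor gene Cenpe rose by 2.53 (SE 0.34) in WT and 2.42 (SE 0.34) in KO, and Cenpf, the gene of a large kinetochore protein, by 2.33 (SE 0.26) in WT and 2.44 (SE 0.26) in KO.

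Cenpa was the kinetochore gene that was not called in either genotype. It stood at 101 and 205 CPM for naive WT, 143 and 112 for naive KO, 154, 181 and 169 for iGCB WT and 162, 159.8 and 146 for iGCB KO. Naive WT 2 was the highest of all 10 libraries, the naive and iGCB groups overlapped in WT, and in KO the iGCB libraries lay above both naive ones. The log2 fold change was 0.14 (SE 0.25, 95% interval -0.41 to 0.69, adjusted p = 0.657) in WT and 0.29 (SE 0.25, 95% interval -0.26 to 0.84, adjusted p = 0.338) in KO. Without naive WT 2 the value in WT was 0.73 and was called (adjusted p = 0.0128), and without naive WT 1 it was -0.29. Over the 11 alternatives in WT its adjusted p ranged from 0.0128 to 0.939.

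The 4 genes of the chromosomal passenger complex, which corrects attachments and guides cytokinesis, all rose. Cdca8, which encodes its subunit borealin, stood at 8.43 and 4.71 CPM for naive WT, 8.62 and 5 for naive KO, 98.3, 103 and 129 for iGCB WT and 92.4, 100.3 and 84.8 for iGCB KO, a change of 4.06 (SE 0.33) in WT and 3.76 (SE 0.32) in KO. Birc5, the gene of survivin, gave 12.3 and 6.35 CPM for naive WT, 10.7 and 3.67 for naive KO, 120.5, 133 and 149 for iGCB WT and 108, 142 and 104 for iGCB KO and rose by 3.84 (SE 0.45) in WT and 4.03 (SE 0.45) in KO. The kinase gene Aurkb had 14.5 and 8.07 CPM for naive WT, 14.6 and 7.46 for naive KO, 114, 120.4 and 135 for iGCB WT and 102, 109 and 92.8 for iGCB KO, a rise of 3.45 (SE 0.33) in WT and 3.19 (SE 0.33) in KO. Incenp, the scaffold of the complex, stood at 61.4 and 39.4 CPM for naive WT, 48 and 41.5 for naive KO, 247, 219 and 291 for iGCB WT and 217, 188 and 203 for iGCB KO. Its naive level per length, 11.6 CPM per kilobase in WT, was the highest of the 4, and it rose least, by 2.33 (SE 0.22) in WT and 2.18 (SE 0.22) in KO.

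All 6 cytokinesis genes rose in each genotype. Anln, which encodes a scaffold of the contractile ring, stood at 7.88 and 7.03 CPM for naive WT, 6.47 and 6.97 for naive KO, 39.3, 55 and 47.3 for iGCB WT and 46.3, 37.3 and 36.3 for iGCB KO and had the smallest p of the group in both genotypes, with a change of 2.66 (SE 0.22) in WT and 2.57 (SE 0.22) in KO. The central spindle motor gene Kif23 gave 31.5 and 18.9 CPM for naive WT, 23.4 and 16.9 for naive KO, 83.6, 109.9 and 90.8 for iGCB WT and 77, 81.1 and 81.9 for iGCB KO and rose least, by 1.91 (SE 0.24) in WT and 1.99 (SE 0.25) in KO. Kif20a, the gene of another central spindle motor, rose by 3.33 (SE 0.30) in WT and 2.52 (SE 0.28) in KO, and Ect2, which encodes the activator of RhoA at the cleavage site, by 2.87 (SE 0.24) in WT and 2.46 (SE 0.24) in KO. Racgap1, whose product forms the centralspindlin complex with KIF23, rose by 3.14 (SE 0.44) in WT and 2.62 (SE 0.42) in KO. Prc1, the gene of a protein that bundles the central spindle, rose by 2.34 (SE 0.24) in WT and 2.28 (SE 0.24) in KO.

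Of the 4 genes of mitotic exit, 3 rose in each genotype. Ube2c, which encodes an E2 enzyme of the APC/C, stood at 5.37 and 1.82 CPM for naive WT, 6.11 and 1.46 for naive KO, 115, 155 and 178 for iGCB WT and 124, 169 and 136 for iGCB KO. This was the largest change of all 41 genes, 5.36 (SE 0.64) in WT and 5.22 (SE 0.63) in KO, and 22.8% of its exonic bases overlap the gene Tnnc2 on the opposite strand. Cdc20, the gene of an APC/C activator, gave 12.3 and 4.92 CPM for naive WT, 12.5 and 4.8 for naive KO, 110.3, 124 and 149.9 for iGCB WT and 98.5, 120.1 and 91.8 for iGCB KO and rose by 3.89 (SE 0.47) in WT and 3.57 (SE 0.47) in KO. Espl1, which encodes separase, rose by 3.39 (SE 0.42) in WT and 2.94 (SE 0.41) in KO. Pttg1 encodes securin, the inhibitor of separase, and stood at 18.4 and 18 CPM for naive WT, 19.6 and 13.9 for naive KO, 16, 16.7 and 19.4 for iGCB WT and 17, 18.2 and 16 for iGCB KO. All 10 libraries lay between 13.9 and 19.6 CPM, and the log2 fold change was -0.07 (SE 0.21, 95% interval -0.52 to 0.39, adjusted p = 0.797) in WT and 0.02 (SE 0.21, 95% interval -0.44 to 0.48, adjusted p = 0.932) in KO. The sign of the Pttg1 value in KO changed with the scaling, to -0.08 by relative log expression.

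Both genes of mitotic chromosomes rose. Top2a stood at 183 and 73 CPM for naive WT, 173 and 81.1 for naive KO, 932, 976 and 949 for iGCB WT and 802, 774 and 802 for iGCB KO, a change of 2.89 (SE 0.40) in WT and 2.64 (SE 0.40) in KO. Mki67 gave 299 and 162 CPM for naive WT, 265 and 177 for naive KO, 1259, 1245 and 1025 for iGCB WT and 1051, 679 and 965 for iGCB KO, with iGCB KO 2 the lowest of the iGCB libraries, and rose by 2.35 (SE 0.31) in WT and 2.02 (SE 0.31) in KO.

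Because most of the genes rose with the stage, promoters of the listed genes were read from RefSeq. RefSeq promoters of GRCm38.p6, the assembly that mm10 is made from, were found for 36 of the 43 genes (38 promoters, each from 250 bases before to 50 bases after the start). 2 letter patterns were searched on both strands. TTTGAA is the cell cycle genes homology region, at which the MuvB complex is known to bind promoters of G2 and M genes. CCAAT is the box bound by NF-Y, and the patterns can share a base at their ends. TTTGAA was found in 73.7% of the 38 promoters and in 17.9% of all 32851 promoters of the same length. CCAAT was found in 81.6% and 37.4%, and both patterns in 65.8% and 6.95%. Among tested genes with a promoter found, only Cenpa and Pttg1 were not called, too few to show whether the patterns followed the stage change. Birc5, Nuf2 and Nusap1, which rose, and Pttg1, which did not, held neither pattern, while Cenpa held both. The other tested genes with a promoter found all rose, and each held at least 1 pattern. Kif11 and Nek2, which were not tested, are among the 36 genes. A match is a description of letters and does not show binding, and the part of the patterns in the rise was not tested. Below are the 120 bases before the RefSeq start of 5 of these genes, given as examples. The stretches read 5′ to 3′ on the gene's strand, with each match to either pattern, on either strand, in capitals. They lie at chr10:69352913-69353032 (minus strand), chr4:118437344-118437463 (minus), chr15:102296173-102296292 (plus), chr11:99024190-99024309 (minus) and chr7:135716380-135716499 (minus).
Cdk1: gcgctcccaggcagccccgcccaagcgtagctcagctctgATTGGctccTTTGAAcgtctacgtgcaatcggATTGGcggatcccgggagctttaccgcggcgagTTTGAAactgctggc
Cdc20: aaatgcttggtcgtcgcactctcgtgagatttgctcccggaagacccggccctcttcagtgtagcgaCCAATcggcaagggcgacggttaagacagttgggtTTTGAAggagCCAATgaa
Espl1: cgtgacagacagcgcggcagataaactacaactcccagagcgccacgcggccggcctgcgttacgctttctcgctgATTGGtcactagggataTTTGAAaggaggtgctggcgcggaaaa
Top2a: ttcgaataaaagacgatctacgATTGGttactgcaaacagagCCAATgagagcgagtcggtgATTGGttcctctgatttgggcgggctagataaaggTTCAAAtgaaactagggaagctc
Mki67: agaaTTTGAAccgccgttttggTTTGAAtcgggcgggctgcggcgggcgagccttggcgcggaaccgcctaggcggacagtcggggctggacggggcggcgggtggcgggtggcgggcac
The Cdk1 stretch holds 2 copies of each pattern, the Top2a stretch 1 TTTGAA on the reverse strand and 3 CCAAT, and the Mki67 stretch 2 TTTGAA and 0 CCAAT. The whole Mki67 promoter, over which the shares were counted, holds 3 CCAAT, all outside the stretch shown. By the gene positions of the GENCODE annotation, the last bases of the Cdk1, Cdc20 and Espl1 stretches lie inside the annotated gene. Among those bases are the TTTGAA nearest the RefSeq start in Cdk1 and Espl1, and the CCAAT nearest it in Cdc20.

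The study asks what Pcbp1 does in B cell function, here in iGCB cells. There, 0 of the 41 genes were called in either direction in KO against WT by edgeR. Over all genes edgeR called 1.27% in either direction and 0.923% lower. DESeq2, which called more of all genes than edgeR (counts at the end), also called 0 of the 41. In edgeR an unadjusted p under 0.05 was reached by 2 of the 41, Kif20a and Ect2, against 9.76% of all genes. The log2 fold change was below 0 for all 41 genes, against 47.2% of all genes tested. The median of the 41 was -0.29, a difference of -18% on the linear scale, and the median of all genes was 0. For 19 of the 41 the KO libraries lay below all WT libraries without overlap, against 10.3% of all genes. The 95% interval excluded a fall of 2-fold for 31 of the 41 genes and reached it for 10, among them Racgap1, Kif20a, Espl1 and Plk1. The genes were read from the same 6 libraries, so their shared direction is not 41 separate observations.

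**Figure D3:**
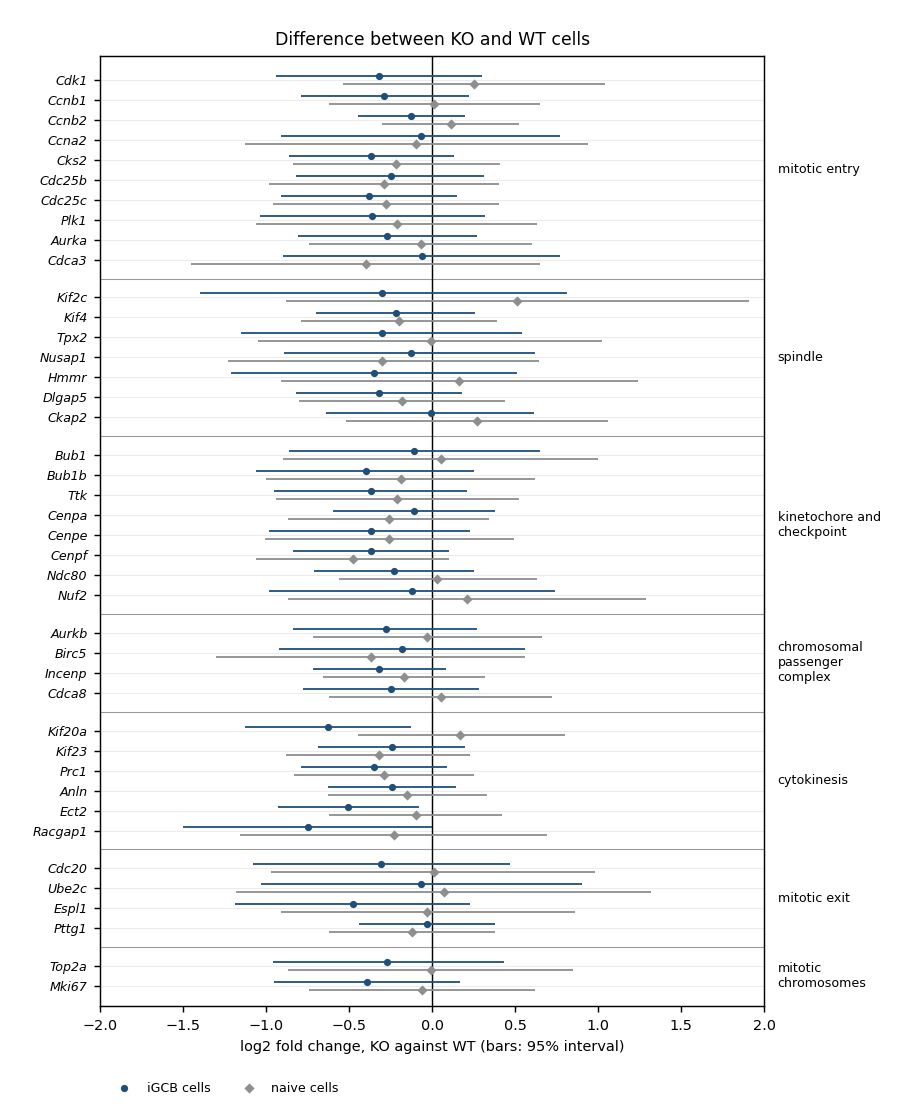
Log2 fold change of KO against WT for each of the 41 genes in iGCB cells (circles) and naive cells (diamonds), with 95% intervals. All 41 iGCB points lie below 0, and the intervals of Kif20a and Ect2 exclude it, while naive points lie from -0.48 to 0.51.

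The sum over the 43 genes was 6623, 7065 and 6785 CPM in iGCB WT and 5804, 5449 and 5447 CPM in iGCB KO, so the groups did not overlap. Against the mean of the WT libraries, the median gene lay at -0.26, -0.21 and -0.32 log2 units in KO 1, 2 and 3, and at -0.11, 0.05 and 0.03 in WT 1, 2 and 3. In KO 3 all 41 genes lay below that mean, in KO 1 38 and in KO 2 34. In WT 1, 32 genes also lay below it, close to KO 2, against 14 in WT 2 and 16 in WT 3. Of the 6 iGCB libraries, the highest value of a gene was in a WT library for each of the 41 genes. The lowest value was in KO 3 for 20 genes, KO 2 for 13, KO 1 for 3, WT 1 for 4 and WT 3 for 1. With each of the 6 libraries left out in turn, 38 to 41 genes stayed below 0 and the median ranged from -0.35 to -0.24. Other marker genes also differed between the iGCB groups. Plasma cell markers were lower in KO (sums above), and edgeR called Jchain, Prdm1 and Xbp1 among them. Of the B cell markers, Cd79a was lower in KO, with a log2 fold change of -1.03 in iGCB cells (edgeR's adjusted p = 0.00794) and -1.60 in naive cells (adjusted p = 0.0126). Cd79a is also named mb-1, as in the Mb1-Cre of the KO mice, and Cre in WT mice is not stated. For this gene the Cre allele and the loss of Pcbp1 therefore cannot be told apart. Ptprc gave -0.04 in iGCB cells, and Cd79b, Ms4a1, Pax5, Cd22, Blk, Ighm and Fcrla gave 0.19 to 0.71 and were not called. The 10 T and NK cell markers summed to 66.2 to 74.2 CPM in KO and 22.5 to 32.1 in WT. That sum rested on Lck, at 64.9 CPM in KO and 21.5 in WT (log2 fold change 1.60, adjusted p = 0.00673), while 6 of the 10 lay below 0, the median was -0.07, and Ncr1 was at 0 in iGCB WT. The 12 erythroid and megakaryocyte markers summed to 4.9 to 7.62 CPM in KO and 2.86 to 3.31 in WT, with Hba-a2 and Slc4a1 at 0 in both and Hba-a1 at 0 in WT. Myeloid markers summed to 38 to 75.7 CPM in KO and 23.2 to 38.6 in WT, with S100a8 at 0 in both and Elane at 0 in KO. Of the 9 myeloid markers tested 7 lay above 0, with a median of 1.55, and edgeR called 0 of them. The part of these markers in the result was not tested.

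**Figure D4:**
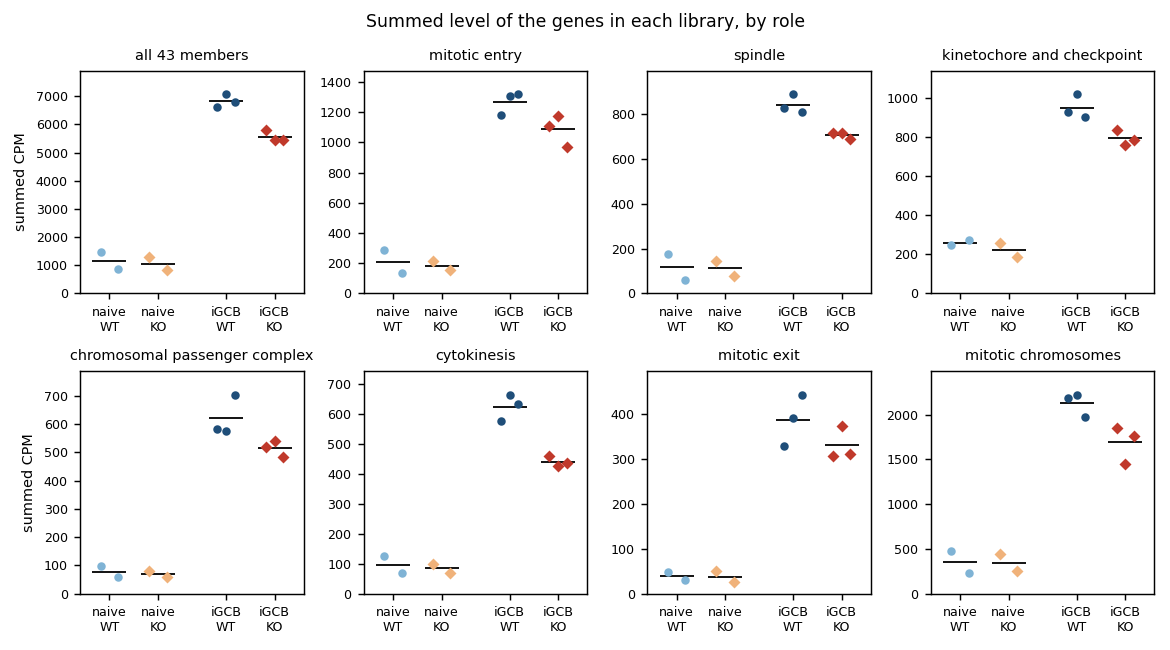
Summed level of the genes in each library in CPM, for all 43 genes and for each role group (points are libraries, black bars group means, y axes start at 0). For all 43 genes the 3 iGCB KO libraries lie between 5447 and 5804, below the iGCB WT libraries at 6623 to 7065.

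Cytokinesis genes had the lowest median of the role groups in iGCB KO, -0.43. In 5 of the 6 the KO libraries lay below WT without overlap, against 10.3% of all genes. Racgap1 (chr15:99620496-99651656 in mm10) stood at 213, 196 and 224 CPM in iGCB WT and 139, 119 and 118 CPM in iGCB KO. The KO mean was 125 ± 12.1 CPM and the WT mean 211 ± 14 (SD, n = 3 each). Its log2 fold change was -0.75 (SE 0.34, 95% interval -1.50 to 0.00, adjusted p = 0.515), the lowest of all 41. Kif20a stood at 70.5, 82.5 and 90.1 CPM in iGCB WT and 51.7, 50.6 and 54.8 CPM in iGCB KO, and all 3 KO libraries lay below the lowest WT library. The difference was -0.63 (SE 0.23, 95% interval -1.13 to -0.13, adjusted p = 0.347), and 29.3% of its exonic bases overlap Cdc23 on the opposite strand, which differed by -0.19. Ect2 gave 78.9, 103 and 79 CPM in iGCB WT and 63.5, 60.2 and 60.3 CPM in iGCB KO, with WT 2 above the other WT libraries, and a difference of -0.51 (SE 0.19, 95% interval -0.93 to -0.08, adjusted p = 0.378). Prc1 stood at 92.9, 118 and 102 CPM in iGCB WT and 80.7, 78.9 and 86 CPM in iGCB KO, without overlap and with a difference of -0.35 (SE 0.20, adjusted p = 0.642). Kif23 gave -0.24 without overlap and Anln -0.24 with overlap.

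These calls changed with the settings of the fit. The fit of 4 groups shares each gene's spread between naive and iGCB libraries. The SEs of the iGCB comparison thus also hold the spread between the naive number 1 and number 2 libraries. Those differ in sex, while all iGCB libraries were male. Fitted on the 6 iGCB libraries alone, where 15377 genes passed the filter on low counts in place of 21010, 3 of the 41 genes fell (3.47% of all genes tested there were called lower). A replicate block called 2 of the 41 lower (1.79% of all genes), and the fit with no filter on low counts called 1 (1.76%). The 3 genes of the iGCB fit were Racgap1 (-0.75, adjusted p = 0.00474), Kif20a (-0.63, adjusted p = 0.0188) and Espl1 (-0.48, adjusted p = 0.034). Over 12 alternatives the adjusted p ranged from 0.00297 to 0.813 for Racgap1, from 0.0188 to 0.688 for Kif20a and from 0.034 to 0.916 for Espl1. The value of Racgap1 stayed between -0.83 and -0.71 over these alternatives, that of Kif20a between -0.72 and -0.55 and that of Espl1 between -0.52 and -0.46. Ect2 was called in 0 of the 12, with an adjusted p from 0.06 to 0.753.

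Spindle genes had a median of -0.30 in iGCB KO, and 5 of 7 were lower without overlap, against 10.3% of all genes. Kif4 stood at 78.2, 79.9 and 79.5 CPM in iGCB WT and 66.4, 68 and 69.7 CPM in iGCB KO, with libraries of a group within a few CPM of each other and a difference of -0.22 (SE 0.22, adjusted p = 0.841). Hmmr gave 138, 161 and 137 CPM in iGCB WT and 117, 112 and 115 CPM in iGCB KO and the lowest value of the group, -0.35 (SE 0.39, adjusted p = 0.877). Dlgap5 had the smallest p, with 76.6, 93.3 and 83.3 CPM in iGCB WT and 67.8, 72.8 and 62.8 CPM in iGCB KO and a difference of -0.32 (SE 0.23, adjusted p = 0.748). Ckap2 stood at 38, 43.9 and 39.2 CPM in iGCB WT and 40.4, 40.6 and 39 CPM in iGCB KO, with overlapping groups and a value of -0.01 (SE 0.28, adjusted p = 1). Tpx2 and Kif2c, both without overlap, gave -0.30, and Nusap1 gave -0.13.

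Genes of mitotic entry had a median of -0.28, with 3 of 10 lower without overlap, against 10.3% of all genes. Those 3 were Ccnb1, Cdc25c and Plk1. Ccnb1 stood at 144, 158 and 181 CPM in iGCB WT and 135, 133 and 129 CPM in iGCB KO, with a difference of -0.29 (SE 0.23, adjusted p = 0.779). Plk1 stood at 94.7, 113 and 109 CPM in iGCB WT and 84.7, 83.2 and 79.8 CPM in iGCB KO, a difference of -0.36 (SE 0.31, adjusted p = 0.807). Cdc25c had the lowest value of the group, -0.38 (SE 0.24, adjusted p = 0.696), and Cks2 the smallest p, with -0.37 (SE 0.23, adjusted p = 0.686). The Cks2 groups overlapped, and WT 3, at 101 CPM, lay apart from WT 1 and WT 2, at 53.7 and 63 CPM. Over 12 alternatives the value of Cks2 ranged from -0.54 to -0.05. For Cdk1 the groups overlapped through KO 2, and the difference was -0.32 (SE 0.28, adjusted p = 0.812). Ccna2 and Cdca3 gave values near 0, -0.07 and -0.06.

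Kinetochore and checkpoint genes had a median of -0.30, and 2 of 8 were lower without overlap, against 10.3% of all genes. Bub1b stood at 193, 189 and 192 CPM in iGCB WT and 165, 129 and 139 CPM in iGCB KO, the WT libraries lying within 4 CPM of each other, and differed by -0.40 (SE 0.30, adjusted p = 0.753). Ttk gave 30.4, 33.3 and 34.3 CPM in iGCB WT and 24.3, 24.2 and 27.4 CPM in iGCB KO and a difference of -0.37 (SE 0.26, adjusted p = 0.743). Cenpf had the smallest p and overlapping groups, with -0.37 (SE 0.21, adjusted p = 0.652). Bub1 and Cenpa gave -0.11 each. In the chromosomal passenger complex the median was -0.27, with Aurkb and Incenp not overlapping. Incenp stood at 247, 219 and 291 CPM in iGCB WT and 217, 188 and 203 CPM in iGCB KO, a difference of -0.32 (SE 0.18, adjusted p = 0.643), and Aurkb at 114, 120.4 and 135 CPM in iGCB WT and 102, 109 and 92.8 CPM in iGCB KO, a difference of -0.28 (SE 0.25, adjusted p = 0.814). Birc5 gave -0.18 (SE 0.34, adjusted p = 0.971), with KO 2 inside the range of WT.

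Genes of mitotic exit had the median nearest 0 of the role groups, -0.19. Espl1 was the 1 of the 4 that was lower without overlap, against 10.3% of all genes. It stood at 88.1, 94.7 and 94.8 CPM in iGCB WT and 65.6, 66.5 and 66.7 CPM in iGCB KO, with the KO libraries within 2 CPM of each other, and differed by -0.48 (SE 0.32, 95% interval -1.19 to 0.23, adjusted p = 0.725). Cdc20 gave -0.31 (SE 0.35, adjusted p = 0.886), Ube2c -0.07 (SE 0.44, adjusted p = 1) and Pttg1 -0.03 (SE 0.19, adjusted p = 1), all with overlapping groups. Top2a stood at 932, 976 and 949 CPM in iGCB WT and 802, 774 and 802 CPM in iGCB KO, without overlap, and differed by -0.27 (SE 0.32, adjusted p = 0.898). Mki67 overlapped through KO 1 and WT 3 and differed by -0.39 (SE 0.25, adjusted p = 0.715).

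The rest of the pathway was read from 9 further lists with 171 genes tested, none of them among the 43. In iGCB KO against WT, edgeR called 0 of the 171, 15 had an unadjusted p under 0.05, a share near the 9.76% of all genes, and 132 lay below 0, against 47.2% of all genes. DESeq2 called 2 of the 171, a smaller share than over all genes, whose DESeq2 counts are given at the end. These were the condensin genes Ncapd3 and Ncapg2, whose products compact mitotic chromosomes. For them edgeR gave -0.50 (SE 0.13, adjusted p = 0.133) and -0.48 (SE 0.14, adjusted p = 0.186). Genes of S phase had a median of -0.31, with 23 of 24 below 0. Uhrf1, which encodes a factor that maintains DNA methylation, gave -0.68 (SE 0.25, adjusted p = 0.347). Pola1, the gene of a DNA polymerase subunit, gave -0.50 (SE 0.18, adjusted p = 0.333). Other spindle, centrosome and cytokinesis genes had a median of -0.25, other kinetochore and centromere genes -0.17 and condensin and cohesin -0.15. The highest value of the spindle list, and its 1 gene higher in KO without overlap, was Psrc1 at 0.69 (174 ± 29.6 CPM in WT and 282 ± 8.91 in KO, SD, n = 3), which was chosen after its values were seen and was not called. The centriole gene Stil gave -0.50 (SE 0.19, adjusted p = 0.397) and the centromere gene Cenpi -0.48 (SE 0.19, adjusted p = 0.395). Other mitotic entry regulators had a median of -0.12, G1 cyclins, CDKs and E2F -0.14, and APC/C subunits and regulators -0.10. CDK inhibitors, which brake the cycle, had a median of 0.17, with Cdkn2d at 0.29 and Cdkn1b at 0.18 as the smallest p.

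**Figure D5:**
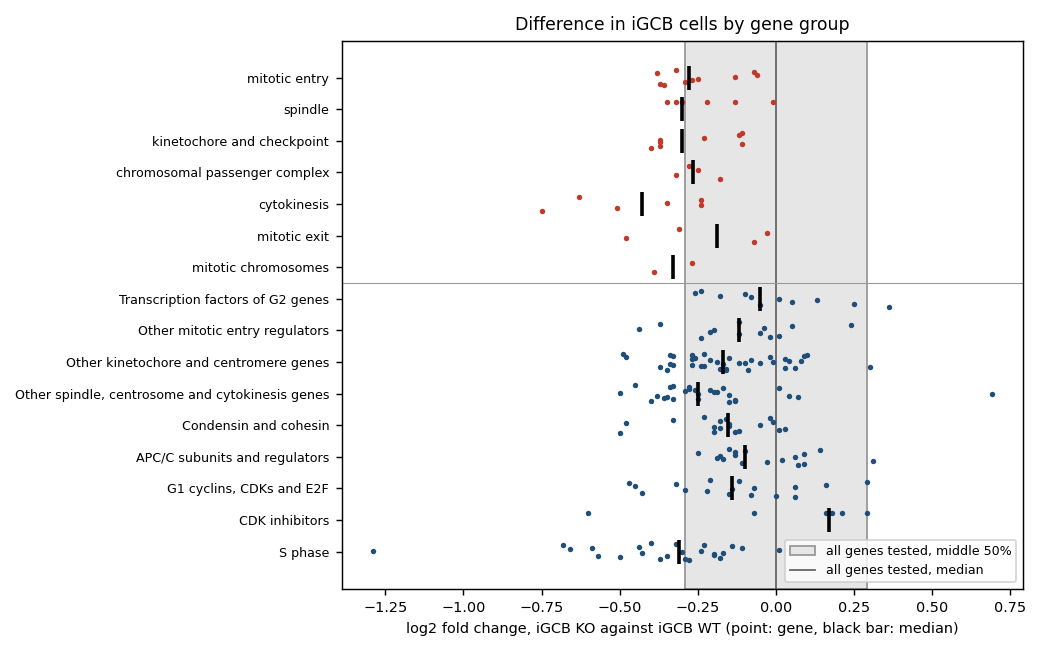
Log2 fold change of iGCB KO against iGCB WT for each gene (points), by role group of the 43 genes (red) and by the 9 further lists (blue), with the median of each as a black bar. The grey band holds the middle 50% of all genes tested. The band starts at -0.29. The medians of cytokinesis (-0.43), mitotic chromosomes (-0.33), S phase (-0.31), spindle (-0.30) and kinetochore and checkpoint genes (-0.30) lie left of it, and that of CDK inhibitors, 0.17, lies right of 0.

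Among the 11 transcription factor genes of the G2 programme, 0 were called in iGCB KO and the median was -0.05. Lin37, a MuvB subunit, gave 0.36 (SE 0.25, adjusted p = 0.735), and Nfyb, an NF-Y subunit, 0.25 (SE 0.18, adjusted p = 0.752). With the stage in WT, 4 of the 11 rose and 4 fell, where 31.7% of all genes were called lower. The gene of B-MYB, Mybl2, rose by 3.17 (SE 0.28) in WT and 3.44 (SE 0.29) in KO. Foxm1, which encodes the forkhead factor of G2 genes, rose by 2.56 (SE 0.26) and 2.31 (SE 0.26). With the stage in WT, 13 of 13 tested entry regulators rose, 32 of 37 kinetochore and centromere genes, 23 of 27 spindle, centrosome and cytokinesis genes and 21 of 24 S phase genes, against 24.7% of all genes, and 0 of these fell. Of 18 condensin and cohesin genes 11 rose and 4 fell, of 17 APC/C genes 9 rose and 1 fell, of 17 G1 cyclin, CDK and E2F genes 10 rose and 3 fell, and of 7 CDK inhibitors 5 rose and 1 fell. In that comparison, Cks1b, a CDK adaptor like Cks2, rose by 4.77 (SE 0.51), and Spc24, a partner of Ndc80 and Nuf2, by 4.19 (SE 0.39). The spindle gene Psrc1 rose by 6.64 (SE 0.47) in WT and 7.47 (SE 0.48) in KO. The CDK inhibitor Cdkn1a also rose, by 4.64 (SE 0.42) in WT and 5.57 (SE 0.44) in KO.

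In naive cells, 0 of the 41 genes were called in KO against WT by edgeR, against 0.0476% of all genes. DESeq2, which called more of all genes than edgeR (counts at the end), also called 0 of the 41. In edgeR 0 of the 41 had an unadjusted p under 0.05, against 5.55% of all genes. The log2 fold change was below 0 for 28 of 41 genes, against 54.8% of all genes, with a median of -0.10. The extremes were Kif2c and Cenpf. Kif2c stood at 8.61 and 0.983 CPM in naive WT and 8.89 and 4.97 CPM in naive KO and gave 0.51 (SE 0.63, adjusted p = 1). Cenpf stood at 32.6 and 20.7 CPM in naive WT and 21 and 17.1 CPM in naive KO and gave -0.48 (SE 0.26, adjusted p = 1). Anln was the gene whose groups did not overlap, against 12.7% of all genes that were lower without overlap. It stood at 7.88 and 7.03 CPM in naive WT and 6.47 and 6.97 CPM in naive KO and gave -0.15 (SE 0.22, adjusted p = 1).

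Naive libraries of a genotype lay far apart for these genes, and they lay apart by number. The sum over the 43 genes was 1461 CPM in WT 1 and 1284 in KO 1, and 855 in WT 2 and 831 in KO 2. The number 1 library was above the number 2 library for 39 of 41 genes in WT, by a median log2 difference of 0.97, and for 38 of 41 in KO, by 0.68. Over all genes tested the medians were -0.03 and 0. For 37 of the 41 genes both number 1 libraries lay above both number 2 libraries, as did 25.9% of all genes. By role, the median log2 difference in WT ran from 0.77 for cytokinesis genes to 1.61 for spindle genes, and in KO from 0.35 for cytokinesis genes to 1.19 for genes of mitotic exit. The number 1 libraries were female and the number 2 libraries male, so sex and number cannot be told apart. Naive KO 2 was also lowest in erythroid (30.8 CPM) and myeloid markers (45.1 CPM), whose sums in the other naive libraries were 119 to 234 and 209.6 to 313 CPM, and their part was not tested.

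Within number 1, KO lay below WT for 29 of 41 genes, with a median log2 difference of -0.20. Within number 2, KO lay above WT for 29 of 41, with a median of 0.12. The direction of the naive comparison thus differed between the pairs and between subsets of the libraries. Without WT 1 the median was 0.52 and Kif2c was called higher (2.81, adjusted p = 0.0261, against 0.0569% of all genes called higher there), without WT 2 the median was -0.54, without KO 1 -0.47 and without KO 2 0.19. Over 11 alternatives the adjusted p of Kif2c ranged from 0.0261 to 1. With scaling by library size alone the median was 0.05.

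Whether the KO effect differs between iGCB and naive cells was tested as the difference of the log2 fold changes. None of the 41 genes was called by edgeR (0 of 41, against 0.0333% of all genes). DESeq2, which called more of all genes than edgeR (counts at the end), also called 0 of the 41. In edgeR 0 of the 41 had an unadjusted p under 0.05, against 6.06% of all genes. The median difference was -0.16, iGCB minus naive, and it was below 0 for 32 of 41 genes, against 47.4% of all genes. Kif20a gave the smallest p, at -0.80 (SE 0.37, 95% interval -1.61 to 0.00, adjusted p = 0.828), with 0.17 (SE 0.29) in naive and -0.63 (SE 0.23) in iGCB cells. Kif2c gave -0.81 (SE 0.81, 95% interval -2.59 to 0.97, adjusted p = 0.998). The 95% interval reached a difference of 2-fold downward for 27 of the 41 genes, so for those genes a difference of that size is within the error of these libraries. The direction rested on single naive libraries: the median was -0.81 without naive WT 1, with Kif2c called lower (-3.11, adjusted p = 0.0151, against 0.232% of all genes), 0.22 without naive WT 2 and 0.23 without naive KO 1. Over 15 alternatives the adjusted p of Kif2c ranged from 0.0151 to 1.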

How the data were processed

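RNA-seq was measured in 10 libraries of naive B cells and iGCB cells. The deposited file holds raw read counts by gene symbol. The submitters' processing notes name featureCounts and mm10. Aligner, annotation and strandedness: not given in the sources used here. Odd numbers were 17.7% to 26.9% of all counts between 1 and 20, depending on the library, so a count may not be 1 independent fragment. Of the 55492 symbols, 24219 were 0 in every library.

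The 43 genes, their role groups and the further lists were chosen with earlier results of these data known, so no list is tested and none gives independent support. Positions and exon lengths came from GENCODE M21 on mm10.

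Genes were filtered with filterByExpr (minimum count 10), and 21010 were fitted with edgeR 4.0.16 in R 4.3.3 (limma 3.58.1) in 1 quasi-likelihood model of 4 groups with TMM scaling and 6 residual degrees of freedom. Two-sided p-values were adjusted after Benjamini-Hochberg across the genes tested, and 0.05 was the threshold. The standard error (SE) of a log2 fold change is its size divided by the square root of its F statistic. Naive libraries were also compared within a number as log2 CPM (prior count 2). The steps were tested on simulated data. As a check for duplicate deposits of a library, libraries of a group were compared in pairs, chi-square over degrees of freedom being 22.1 to 213, and none were merged. A count of 0 allows up to 3 counts, 0.0489 to 0.0919 CPM by library, for counting error only.

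Values per library were given for the genes with the largest and smallest change and the smallest p of each role group, and for others of known role. From each further list, up to 4 called genes of largest fold change, or the 2 of smallest p, could be named. In the naive comparison and the difference of effects, fitted values were given only for the extremes, the smallest p and the gene without overlap. Alternatives were scaling by relative log expression (RLE) or library size alone, no filter, DESeq2 1.42.0, the compared groups alone, a replicate block, a sex term in naive cells, and each library left out. The summed level of the B cell markers is not reported here.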

Additional observations from a re-analysis of the deposited data

How the results depend on the processing

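The stage result held most firmly: 39 of the 41 genes were called higher in each genotype under every alternative run, apart from 40 in WT without naive WT 2, and 0 calls were lost. Its median in WT was 3.75 without naive WT 1 and 2.58 without naive WT 2 (range 2.58 to 3.75 over libraries left out), and in KO 3.28 without naive KO 1 (range 2.53 to 3.28). Cenpa in WT ranged from -0.29 without naive WT 1 to 0.73 without naive WT 2. Pttg1 in WT was 0.00 with no filter, and in KO it was -0.08 with RLE, -0.07 with library size alone, -0.08 in DESeq2, -0.20 without naive KO 2 and -0.01 without iGCB KO 2, with 0.30 without naive KO 1 as its highest.

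In iGCB KO against WT, the genes called lower numbered 1 with no filter (Racgap1), 3 with only the groups compared and 2 with the replicate block (Racgap1, adjusted p = 0.0192, and Kif20a, adjusted p = 0.0478), where 0 were called in the other 9 alternatives. Of 246 values with every library kept, 0 changed direction, and of 246 with a library left out, 7 did, in 4 genes: Cdca3 (0.02 without KO 3, range -0.15 to 0.02), Ckap2 (0.05 without WT 2, 0.01 without KO 3, range -0.05 to 0.05), Ube2c (0.08 without WT 3, 0.03 without KO 1, range -0.22 to 0.08) and Pttg1 (0.06 without WT 3, 0.02 without KO 3, range -0.09 to 0.06).

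In naive cells the direction changed in 32 of 287 values with every library kept and in 66 of 164 with a library left out, the latter in 37 of the 41 genes. Among them were Kif2c (-0.32 without WT 2, 2.81 without WT 1), Kif20a (-0.22 without WT 2, -0.15 without KO 1, 0.71 without WT 1) and Prc1 (0.17 without WT 1, -0.65 without WT 2). The median ranged from -0.54 to 0.52 and the genes called higher from 0 to 1. For the difference of effects, 11 of 205 and 79 of 410 values changed direction, Kif2c to 0.02 without naive WT 2 (-3.11 without naive WT 1), the median ranged from -0.81 to 0.23, and the genes called lower from 0 to 1.

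Over all genes, edgeR called 3 higher and 7 lower in naive cells, against 106 and 62 in DESeq2, 126 and 116 with no filter, 0 and 0 with only the groups compared, 15 and 16 with the replicate block and 59 and 31 with the sex term. In iGCB cells 72 and 194 became 326 and 514 in DESeq2, 290 and 551 with no filter, 329 and 534 with only the groups compared and 212 and 377 with the replicate block. For the difference, 3 and 4 became 69 and 164 in DESeq2, 115 and 258 with no filter and 19 and 55 with the block. From naive to iGCB in WT, 6661 called lower became 4219 with the block. With a library left out, counts higher and lower were 2 to 17 and 9 to 27 in naive cells, 12 to 52 and 26 to 145 in iGCB cells, and 0 to 20 and 0 to 53 for the difference. The cause was not tested.

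After group means were removed, same-number libraries correlated at 0.67 in naive cells, 0.54, -0.18 and 0.02 in iGCB cells, and -0.14, 0.15, -0.14 and -0.23 across stages (7379 genes). The naive value is the same for both numbers by construction, since each naive group holds 2 libraries. The labels do not say what a number shares, so the block is an alternative only.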
